A study of Mus musculus with 12 samples.

Results

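Interferon-stimulated genes are the genes that cells switch on when interferons bind their receptors. Of 44 gene symbols chosen for this group, 43 matched a row by name in a table of 37544 mouse gene areas, and Ifi27 matched none. All 43 passed the filter on low signal, a mean of at least 3.31 over the 10 antibody libraries, that left 28159 gene areas for counting. The signal came from DNA immunoprecipitation sequencing, in which an antibody to a modified base enriches denatured DNA fragments before sequencing. One antibody was against 5-hydroxymethylcytosine (5hmC), the base that Tet enzymes make by oxidising 5-methylcytosine (5mC), and the other against 5mC itself. Th1, Th2, iTreg (induced regulatory), Th17 and naive T cells gave 1 library with each antibody, and Th17 cells also gave a control IgG and an input DNA library. The mice were CD2-Cre Tet2 f/f, in which lymphocytes lose the 5hmC-forming enzyme Tet2, and wild-type littermates on a mixed background, but the labels do not say which genotype, how many animals or what age gave each library. With 1 library per cell type and antibody, there is no test between cell types, and a difference of at least 2-fold is a rule of size only.

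Type I interferons act through the receptor subunits Ifnar1 and Ifnar2, the kinases Jak1 and Tyk2, and a complex with Stat2 and Irf9 that binds the interferon-stimulated response element (ISRE) in target promoters. Interferon gamma, the cytokine of Th1 cells, acts through Ifngr1 and Ifngr2, Jak1 and Jak2, and leads to binding at gamma-activated sites. The products block viral entry, sense foreign RNA and DNA, degrade or modify RNA, tag proteins and prepare peptides for presentation to T cells. In gene bodies, 5hmC is often abundant in genes that are active or poised, while the level of RNA was not measured in these libraries.

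The median 5hmC signal over the 28159 gene areas lay between 12.5 and 14.2 in the 4 differentiated libraries, against 16.7 in naive cells, and the 5mC medians lay between 0.7 and 0.9. The labels of the iTreg and Th17 5hmC libraries are in doubt, because Il17a, the defining Th17 cytokine, had 31.3 with the label iTreg and 8.8 with the label Th17. Il17f had 32.8 with the label iTreg and 5.3 with the label Th17. They are therefore called the libraries labelled iTreg and Th17, and counts are also given with Th1 and Th2 alone. The other markers fit unevenly. Tbx21 was highest in Th1 with 54.8 and Il4 in Th2 with 82.6, whereas Foxp3 was higher with the label Th17 (30.9) than with the label iTreg (25.3). These are marks on DNA and do not measure how pure the cells were.

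Promoter windows of 300 bases (250 before and 50 after the gene start) were taken from RefSeq on GRCm38.p6, a later build than the mm9 of the signal table, and matched 33 of the 43 genes by gene ID. Of these 33 genes, 20 (60.6%) held an ISRE core on either strand, searched as GAAA, any 2 bases and GAAA again, against 3.99% of all 27025 genes with a window. The gamma-activated site TTCNNNGAA, which reads the same on both strands, was in 13 of 33 (39.4%), against 9.55% of all genes. The 2 motifs were searched separately and may overlap each other. The 5 windows below carry the ISRE core and belong to genes with different 5hmC patterns: Isg15 and Igtp with the largest 5hmC differences of their families, Ifit1 with its lowest value in the library labelled iTreg, Oas1a with nearly flat values and Ifitm3 low in a single library. Capitals mark the core and its overlapping repeats, read 5′ to 3′ on the gene's strand.
Isg15 (chr4:156200769-156201068, minus strand): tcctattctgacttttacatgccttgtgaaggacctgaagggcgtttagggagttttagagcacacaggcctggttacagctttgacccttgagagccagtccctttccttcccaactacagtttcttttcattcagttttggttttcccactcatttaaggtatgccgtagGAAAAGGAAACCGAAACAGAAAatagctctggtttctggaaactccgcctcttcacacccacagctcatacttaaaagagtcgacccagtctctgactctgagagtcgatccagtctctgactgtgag
Ifit1 (chr19:34640639-34640938, plus strand): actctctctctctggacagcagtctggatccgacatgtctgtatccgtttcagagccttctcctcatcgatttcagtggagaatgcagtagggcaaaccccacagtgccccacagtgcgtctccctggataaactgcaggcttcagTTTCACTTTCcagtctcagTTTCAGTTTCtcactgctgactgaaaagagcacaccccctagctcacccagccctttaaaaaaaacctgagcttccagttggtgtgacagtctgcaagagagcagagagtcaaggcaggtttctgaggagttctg
Igtp (chr11:58199306-58199605, plus strand): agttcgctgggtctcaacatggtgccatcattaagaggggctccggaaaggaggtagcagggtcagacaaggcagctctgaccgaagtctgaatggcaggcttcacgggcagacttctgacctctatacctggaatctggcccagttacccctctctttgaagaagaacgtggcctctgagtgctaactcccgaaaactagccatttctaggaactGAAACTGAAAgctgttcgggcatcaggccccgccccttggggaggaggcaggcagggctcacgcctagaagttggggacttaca
Oas1a (chr5:120907476-120907775, minus strand): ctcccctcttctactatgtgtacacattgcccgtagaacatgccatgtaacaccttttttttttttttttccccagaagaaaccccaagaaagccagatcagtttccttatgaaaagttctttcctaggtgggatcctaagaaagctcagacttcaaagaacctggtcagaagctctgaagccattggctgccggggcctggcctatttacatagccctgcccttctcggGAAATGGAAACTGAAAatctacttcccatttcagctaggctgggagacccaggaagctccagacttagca
Ifitm3 (chr7:141010695-141010994, minus strand): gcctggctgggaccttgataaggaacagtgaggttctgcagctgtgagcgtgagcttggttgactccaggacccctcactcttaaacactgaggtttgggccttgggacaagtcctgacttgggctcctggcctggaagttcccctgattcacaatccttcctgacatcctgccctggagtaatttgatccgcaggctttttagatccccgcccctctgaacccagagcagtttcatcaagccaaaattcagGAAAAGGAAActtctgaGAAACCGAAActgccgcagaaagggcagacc

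Cytosines followed by guanine (CpG) are the main site of both marks in mammals, and the windows differed widely in how many they held. The median was 6 per window in these genes and 7 over all 32851 windows. The Tap1 window held 15 and the Samhd1 window 29, while that of Oas1a held 3. The 5hmC signal is a mean over the gene area, whereas 250 of the 300 window bases lie before the gene start. A window can therefore lie mostly outside the DNA that was measured. Capitals mark each CpG in the Tap1 and Samhd1 windows, shown because both gene areas had far less 5hmC signal after differentiation and neither window holds the ISRE core.
Tap1 (chr17:34187306-34187605, plus strand): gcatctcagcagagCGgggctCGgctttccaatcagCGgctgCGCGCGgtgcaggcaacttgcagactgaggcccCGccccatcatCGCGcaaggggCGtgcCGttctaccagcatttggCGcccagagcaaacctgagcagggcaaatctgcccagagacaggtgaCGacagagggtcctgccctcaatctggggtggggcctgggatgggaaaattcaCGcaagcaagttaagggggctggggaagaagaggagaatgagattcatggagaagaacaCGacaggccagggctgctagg
Samhd1 (chr2:157135047-157135346, minus strand): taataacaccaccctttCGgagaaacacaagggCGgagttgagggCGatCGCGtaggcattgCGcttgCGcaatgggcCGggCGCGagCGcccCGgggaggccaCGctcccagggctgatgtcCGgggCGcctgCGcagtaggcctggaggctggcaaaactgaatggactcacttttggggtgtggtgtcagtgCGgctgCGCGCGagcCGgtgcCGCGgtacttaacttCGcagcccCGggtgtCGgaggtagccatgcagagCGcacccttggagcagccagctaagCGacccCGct
Genes with large 5hmC differences were found in both sets. Of the genes with a window, 7 of 20 with the core and 7 of 13 without it had at least 2-fold less 5hmC signal after differentiation. The share over all gene areas was 16%. The median log2 differences were -0.63 with the core and -1.0 without it. The sets were not matched for naive 5hmC signal, with which the difference ran over all gene areas, and they were not tested against each other.

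Most interferon-stimulated genes had less 5hmC signal after differentiation. On the log2(signal + 0.2) scale, averaged over the 4 differentiated libraries, 38 of 43 lay below naive, against 64.4% of all gene areas, and 16 lay at least 2-fold below, against 16% of all. None lay at least 2-fold above, against 2.94% of all. Their median log2 difference was -0.69, against -0.27 over all gene areas. With Th1 and Th2 alone, 11 of 43 lay at least 2-fold below, against 14.1% of all gene areas, with a median of -0.46 against -0.24 over all. Scaling each library by its median ratio, which brings the median of all gene areas to 0.00, left 9 genes at least 2-fold below, against 8.38% of all gene areas, 1 above, against 6.51%, and a median of -0.42. The 4 comparisons with naive cells share the naive library and are not independent. Markers of B, myeloid and natural killer cells also lay below naive, 5 of 5 in the mean of the 4 libraries, led by Cd79a (49.3, 42.5, 43.2 and 28.3 against 159.2 in naive cells). Their summed 5hmC signal was 113.3 to 145.1 in the differentiated libraries, against 293.8 in naive cells, and none was at 0. The part of other cells in the result was not tested.

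By library, 11 of 43 genes lay at least 2-fold below naive in Th1 (16.1% of all gene areas), 13 in Th2 (14.8%), 16 in the library labelled iTreg (14.7%) and 21 in that labelled Th17 (25.6%). At least 2-fold above naive were 0 genes in Th1 (4.34% of all gene areas), 0 in Th2 (4.85%), 1 in the library labelled iTreg (4.52%), Ifitm1, and 0 in that labelled Th17 (4.63%). Below naive in all 4 libraries were 31 of 43 genes, against 44.9% of all gene areas, and 10 were at least 2-fold below in all 4, against 6.13%. These 10 were Tap1, Tap2, Psmb8, Psmb9, Oas3, Isg15, Ddx58, Zbp1, Trim21 and Ifi35. Above naive in all 4 were 3 genes, Gbp3, Ifitm1 and Ifi44, against 18.4% of all gene areas. The library labelled Th17 held the lowest value of 23 genes (53.5%), against 36.3% of all gene areas.

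**Figure D1:**
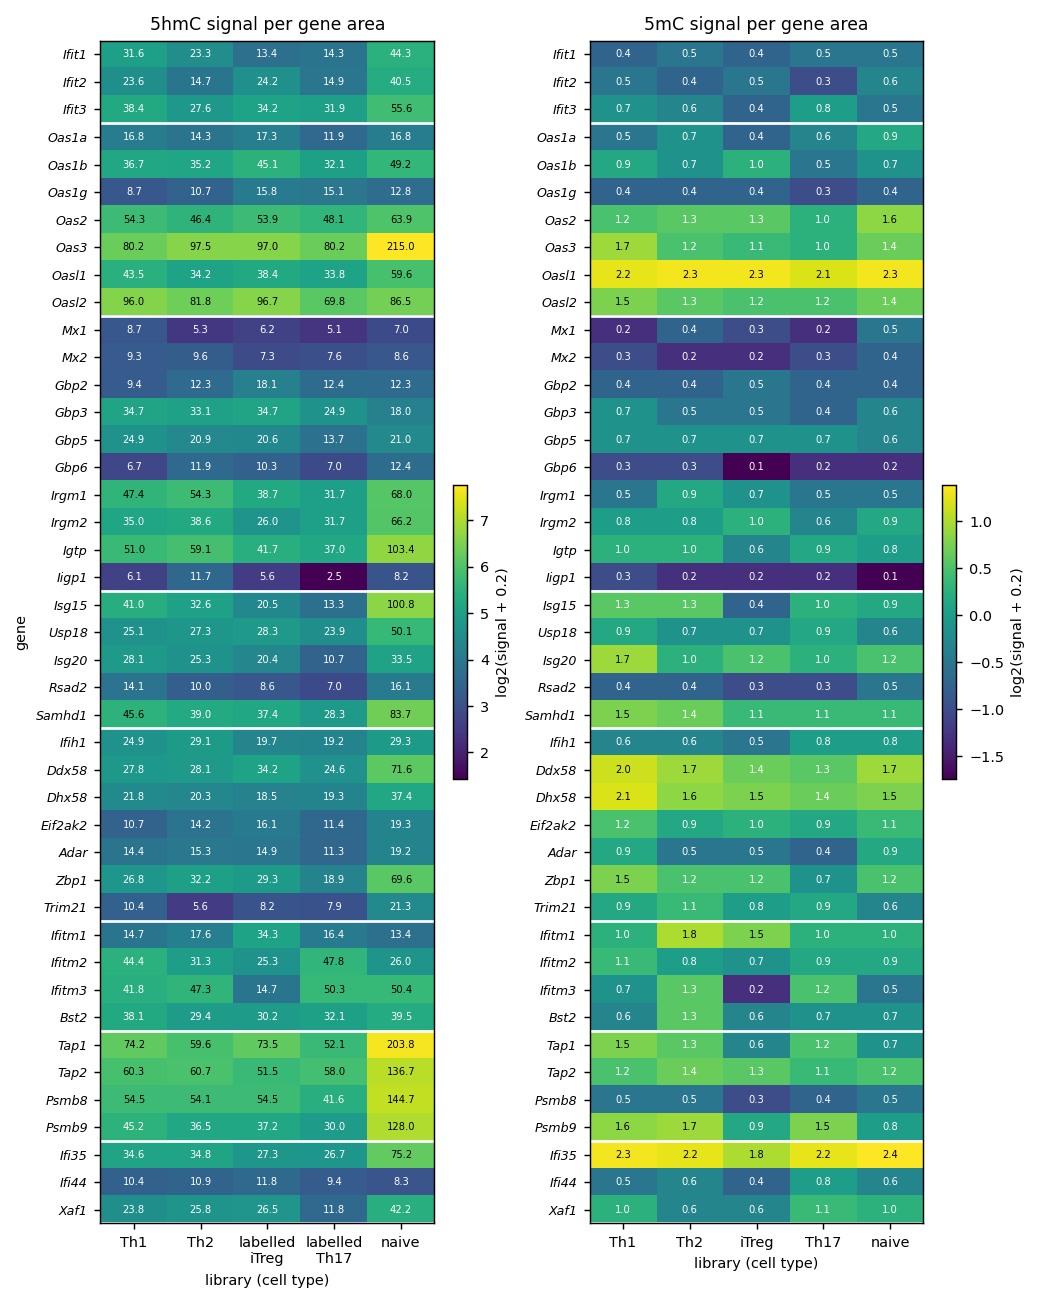
Signal of each interferon-stimulated gene (rows, grouped by family with white lines) in the 5hmC libraries (left) and the 5mC libraries (right), with the deposited value in each cell and colour on the log2(signal + 0.2) scale, separate for each panel. The naive 5hmC column is brightest at Oas3 (215.0) and Tap1 (203.8), while 5mC values stay between 0.1 and 2.4.

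The antigen-processing genes had the most uniform difference. They lie next to each other in the major histocompatibility complex (chromosome 17, 34319043 to 34353265, mm9), and all 4 were at least 2-fold below naive in each differentiated library, with a family median log2 difference of -1.59. Tap1, a subunit of the transporter that moves peptides into the endoplasmic reticulum, had a 5hmC signal of 74.2 in Th1, 59.6 in Th2, 73.5 in the library labelled iTreg and 52.1 in that labelled Th17, against 203.8 in naive cells. Tap2, its partner subunit, had 60.3, 60.7, 51.5 and 58.0 in the same order, against 136.7 in naive cells. Psmb8, a catalytic subunit of the immunoproteasome, had 54.5, 54.1, 54.5 and 41.6, against 144.7 in naive cells. The differentiated libraries thus lay within a narrow band for each gene and the naive library far above it. Psmb9, another immunoproteasome subunit, had the largest difference of the family, with 45.2, 36.5, 37.2 and 30.0 against 128.0 in naive cells. Under median-ratio scaling 3 of the 4 remained at least 2-fold below. The Tap2 area overlaps that of 2 neighbours in the table, so their signals are not separate.

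The Ifit genes, whose products bind viral RNA, form a cluster on chromosome 19 (34625183 to 34724498) and were below naive in each library. Ifit1 had 31.6 in Th1, 23.3 in Th2, 13.4 in the library labelled iTreg and 14.3 in that labelled Th17, against 44.3 in naive cells. Ifit2 had 23.6, 14.7, 24.2 and 14.9 in the same order, against 40.5 in naive cells. Ifit3 had 38.4, 27.6, 34.2 and 31.9, against 55.6 in naive cells. The 3 genes did not share 1 low library: Ifit1 was lowest in the library labelled iTreg, and Ifit2 and Ifit3 in Th2. Ifit1 and Ifit2 were at least 2-fold below naive in the mean of the 4 libraries (log2 -1.18 and -1.10), which neither kept under median-ratio scaling.

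Isg15 had the largest difference of all 43 genes. It encodes a ubiquitin-like protein that is attached to other proteins, and its area (chromosome 4, 155573532 to 155574926) is only 1394 bp long, so its mean rests on few bases. Its 5hmC signal was 41.0 in Th1, 32.6 in Th2, 20.5 in the library labelled iTreg and 13.3 in that labelled Th17, against 100.8 in naive cells. The mean log2 difference was -2.03, and the single libraries ranged between -1.29 and -2.90. Usp18, the protease that removes Isg15 from proteins, was lower by a like amount in each library, with 25.1, 27.3, 28.3 and 23.9 against 50.1 in naive cells. Samhd1, which breaks down deoxynucleotides, had 45.6, 39.0, 37.4 and 28.3, against 83.7 in naive cells. These 3 genes were below naive in every library. Rsad2, which encodes viperin, had 14.1, 10.0, 8.6 and 7.0, against 16.1 in naive cells. The exonuclease gene Isg20 and Rsad2 were close to naive in Th1 (log2 -0.25 and -0.19) and at least 2-fold below it in the library labelled Th17 (-1.63 and -1.18). All 5 genes of this family were at least 2-fold below naive in that library, against 25.6% of all gene areas. In Th1 it was 1 of 5, Isg15, against 16.1% of all.

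The OAS family encodes enzymes that make 2′-5′-linked oligoadenylates on binding double-stranded RNA, and its 7 genes ranged between -1.28 and -0.02 in mean log2 difference. Oas3 had the highest 5hmC signal of all 43 genes in naive cells, with 215.0, against 80.2 in Th1, 97.5 in Th2, 97.0 in the library labelled iTreg and 80.2 in that labelled Th17. Its neighbour Oas2 on chromosome 5 had 54.3, 46.4, 53.9 and 48.1 against 63.9 in naive cells. Oasl2, an OAS-like gene elsewhere on the same chromosome, had 96.0, 81.8, 96.7 and 69.8 against 86.5 in naive cells. Oasl2 thus kept a high signal in every cell type, with a mean log2 difference of -0.02. Oasl1 and Oas1b were below naive in all 4 libraries, with mean log2 differences of -0.67 and -0.41. Oas1a had 16.8, 14.3, 17.3 and 11.9 against 16.8 in naive cells, and Oas1g had 8.7, 10.7, 15.8 and 15.1 against 12.8. The Oas1 copies resemble each other closely, and how reads matching several copies were treated is not given in the sources used here, so values of single copies are uncertain.

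The interferon-induced GTPases differed from gene to gene, also within a subfamily. Of the immunity-related GTPases, which attack the vacuoles of intracellular pathogens, Igtp, Irgm2 and Irgm1 were below naive in each library and Iigp1 was not. Igtp had 51.0 in Th1, 59.1 in Th2, 41.7 in the library labelled iTreg and 37.0 in that labelled Th17, against 103.4 in naive cells. Its neighbour Irgm2 (chromosome 11, 58013057 to 58036284) had 35.0, 38.6, 26.0 and 31.7 against 66.2 in naive cells. Irgm1, elsewhere on chromosome 11, had 47.4, 54.3, 38.7 and 31.7 against 68.0. In these 3 genes Th2 held the highest of the differentiated values. The guanylate-binding proteins on chromosome 3 (142159897 to 142300971) were nearer to naive or above it. Gbp3 had 34.7, 33.1, 34.7 and 24.9 against 18.0 in naive cells, a mean log2 difference of 0.80 and the highest of all 43 genes. Gbp2 had 9.4, 12.3, 18.1 and 12.4 against 12.3 in naive cells, and Gbp5 24.9, 20.9, 20.6 and 13.7 against 21.0. Within this cluster, Gbp3 alone lay above naive in all 4 libraries.

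Mx1 and Mx2, which encode dynamin-like antiviral GTPases on chromosome 16, had low 5hmC in every library: Mx1 had 8.7, 5.3, 6.2 and 5.1 against 7.0 in naive cells. Mx2 had 9.3, 9.6, 7.3 and 7.6 against 8.6. The sign of the mean difference at Mx1, Mx2, Gbp5, Oasl2, Oas1g and Oas1a turned positive under median-ratio scaling. Iigp1 was above naive in Th2 and below it elsewhere, and varied most among the differentiated libraries, with 6.1 in Th1, 11.7 in Th2, 5.6 in the library labelled iTreg and 2.5 in that labelled Th17, against 8.2 in naive cells, a log2 range of 2.14, at a low level. Over all 43 genes the median of this range was 0.59, against 0.68 over all gene areas. Gbp6 had 6.7, 11.9, 10.3 and 7.0 against 12.4 in naive cells.

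**Figure D2:**
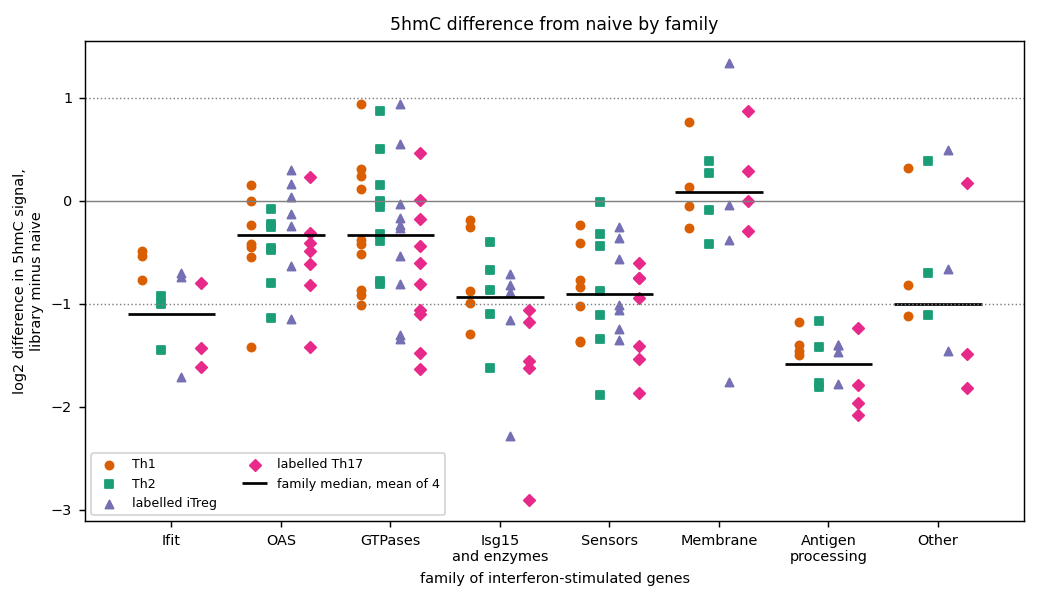
Log2 difference in 5hmC signal (log2(signal + 0.2), each differentiated library minus naive) for every gene, by family, with 1 symbol per gene and library and a black line at the family median of the mean over 4 libraries. Antigen-processing genes lie entirely below the dotted line at -1, while the membrane family spreads on both sides of 0 with a median of 0.09.

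All 7 sensor genes lay below naive in each library. Ddx58, which encodes the RNA helicase RIG-I, had 27.8 in Th1, 28.1 in Th2, 34.2 in the library labelled iTreg and 24.6 in that labelled Th17, against 71.6 in naive cells. Zbp1, a sensor of Z-form nucleic acid, had 26.8, 32.2, 29.3 and 18.9 against 69.6. Trim21, a cytosolic antibody receptor, had 10.4, 5.6, 8.2 and 7.9 against 21.3. These 3 were at least 2-fold below naive in each library and also under median-ratio scaling in the mean. Ifih1, which encodes the RNA sensor MDA5 and has the longest area of the group (50462 bp), had 24.9, 29.1, 19.7 and 19.2 against 29.3 in naive cells. Th1 and Th2 were thus close to naive at Ifih1. Dhx58, a regulatory relative of both helicases, had 21.8, 20.3, 18.5 and 19.3 against 37.4, but also the highest IgG signal of the 43 genes, 4.9. Eif2ak2, which encodes the RNA-activated kinase PKR, had 10.7, 14.2, 16.1 and 11.4 against 19.3. Eif2ak2 and the RNA-editing deaminase gene Adar had mean log2 differences of -0.57 and -0.46.

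The membrane family was mixed: Ifitm3 and Bst2 were below naive in all 4 libraries, Ifitm1 above it in all 4, and Ifitm2 varied. Its Ifitm genes, whose products hinder viral entry at membranes, lie within 55905 bp on chromosome 7 (148140737 to 148196642). Ifitm1 had 14.7 in Th1, 17.6 in Th2, 34.3 in the library labelled iTreg and 16.4 in that labelled Th17, against 13.4 in naive cells. Ifitm3 had the opposite shape, with 41.8, 47.3, 14.7 and 50.3 against 50.4 in naive cells. Ifitm2 had 44.4, 31.3, 25.3 and 47.8 against 26.0. The library labelled iTreg therefore stood highest at Ifitm1 and lowest at Ifitm2 and Ifitm3. These areas are 1122 to 2398 bp long and the copies are alike in sequence, so the values are among the least precise of the group. Bst2, which encodes tetherin, a tether of budding virus, had 38.1, 29.4, 30.2 and 32.1 against 39.5.

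Ifi35, Xaf1 and Ifi44 complete the group. Ifi35, which encodes a leucine zipper protein, had 34.6, 34.8, 27.3 and 26.7 against 75.2 in naive cells. Xaf1, a partner of an inhibitor of cell death, had 23.8, 25.8, 26.5 and 11.8 against 42.2. Ifi44 was low throughout and slightly above naive, with 10.4, 10.9, 11.8 and 9.4 against 8.3.

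The difference ran with the level in naive cells, and naive signal was high in this group. The median naive 5hmC signal was 42.2 in the 43 genes and 16.7 over all gene areas, and 27 of 43 lay at or above 28.2, the 75th percentile of all. Among genes with a naive signal of at least 100, 7 of 7 were at least 2-fold lower after differentiation, against 74.3% of the 374 gene areas at that level. For naive signals of 50 to 100 it was 5 of 12, against 61.3% of 2002. For 20 to 50 it was 4 of 11, against 25.4% of 9185. Below 20 it was 0 of 13, against 6.68% of the gene areas of 10 to 20 and 0.353% of those under 10. Within these bands, which were chosen after the data were seen, the median log2 differences of the genes and of all gene areas were -1.51 and -1.44 (at least 100), -0.85 and -1.16 (50 to 100), -0.75 and -0.66 (20 to 50), -0.17 and -0.21 (10 to 20) and -0.10 and 0.28 (under 10). The naive value enters both the band and the difference, so this is a description with no test.

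**Figure D3:**
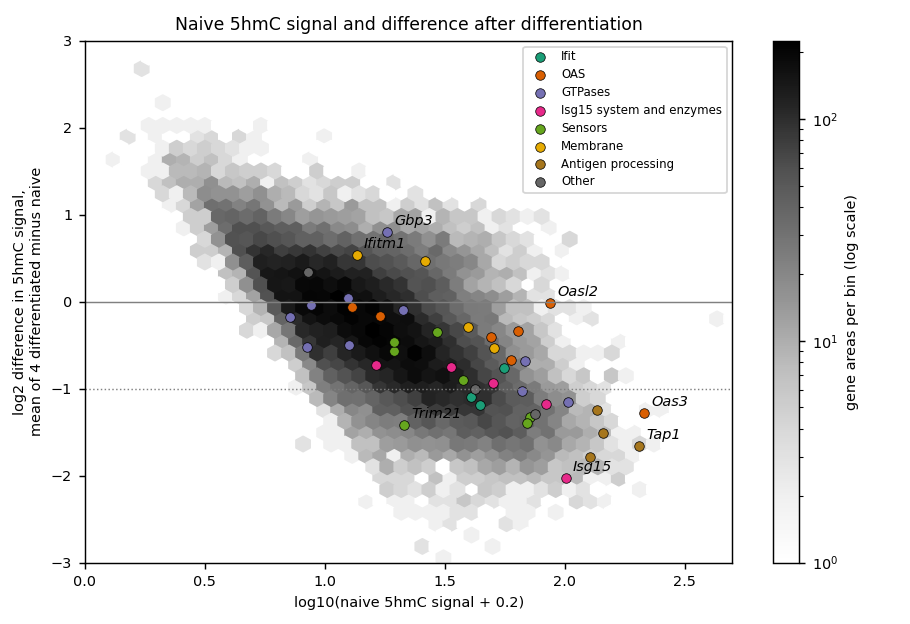
Mean log2 difference in 5hmC signal of the 4 differentiated libraries from naive (y axis) against log10 of the naive signal plus 0.2 (x axis), with interferon-stimulated genes as coloured points by family over all 28159 gene areas tested as grey bins (a few lie outside the axes). Both axes contain the naive value. Most coloured points lie within the grey cloud, with Oasl2 high and Trim21 low for their naive level.

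Gene areas around these genes were also examined. Within 100 kb of a member lay 226 other gene areas, of which 217 passed the filter. Their median log2 difference was -0.55, between the -0.69 of the interferon-stimulated genes and the -0.27 of all gene areas, and 62 (28.6%, against 16% of all gene areas) were at least 2-fold lower and 3 higher (2.94% of all). Of the 217, 5 overlapped a member's area, and without them the count was 59 of 212. Around the antigen-processing cluster, 6 of 14 neighbours were at least 2-fold lower, among them Brd2 (31.2, 27.6, 37.6 and 19.7 against 84.3 in naive cells). The nearby class II genes were mixed. H2-Oa and H2-DMa were among the neighbours at least 2-fold lower. H2-DMb1, H2-Ob and H2-DMb2 stood at -0.78, -0.74 and -0.47, and H2-Ab1, H2-Aa and H2-Eb1 at 0.03, 0.40 and -0.05. Around Bst2, 9 of 15 neighbours were at least 2-fold lower although Bst2 itself was near naive (-0.29), and around Oasl1 and Oasl2 it was 6 of 10. At Xaf1, Zbp1 and Trim21 the opposite held: the neighbours had medians of 0.02, -0.01 and -0.01, and 0 of 9, 1 of 6 and 0 of 14 were at least 2-fold lower.

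Th1 cells make interferon gamma, an inducer of many of these genes, and the Th1 library was therefore set against the other differentiated libraries. Ifng itself had 22.6 in Th1 against 14.3 in Th2, 14.0 in the library labelled iTreg and 8.9 in that labelled Th17. In Th1, 33 of 43 genes had more 5hmC signal than the mean of those 3, against 51.8% of all gene areas, with a median log2 difference of 0.19 against 0.02 over all. None passed 2-fold either way, against 4.93% of all gene areas. The highest were Isg15 (0.98), Ifit1 (0.93) and Rsad2 (0.73), and the lowest Oas1g (-0.64), Gbp2 (-0.57) and Ifitm1 (-0.54). Against Th2 alone, a comparison added after the data were seen because of the doubt about the other labels, 22 of 43 genes were higher in Th1, against 44.3% of all gene areas, and the median was 0.01, against -0.05 over all. The 33 of 43 above thus did not hold against Th2 alone.

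With the 5mC antibody, the genes differed little between cell types. Averaged over the differentiated cell types, 19 of 43 lay above naive and 24 below, none passed 2-fold (2.87% of all gene areas did), and the median log2 difference was -0.05 against -0.11 over all. By library, 0 genes passed 2-fold in Th1 (4.44% of all gene areas), 1 in Th2 (4.68%), 0 in iTreg (5.96%) and 1 in Th17 (5.49%). Both were Ifitm3, whose 5mC signal was 0.7 in Th1, 1.3 in Th2, 0.2 in iTreg and 1.2 in Th17 cells, against 0.5 in naive cells. The values are rounded to 1 decimal, and for 83 of the 172 differences the rounding alone allowed a difference of 0. The largest mean differences above naive were at Psmb9 (1.6, 1.7, 0.9 and 1.5 against 0.8 in naive cells) and Tap1 (1.5, 1.3, 0.6 and 1.2 against 0.7), with log2 values of 0.67 and 0.53, followed by Iigp1 (0.50). Tap2 and Psmb8, next to them, did not move with them, at 0.05 and -0.18. The largest below naive were Mx1 (0.2, 0.4, 0.3 and 0.2 against 0.5), Oas1a (0.5, 0.7, 0.4 and 0.6 against 0.9) and Adar (0.9, 0.5, 0.5 and 0.4 against 0.9), at -0.58, -0.57 and -0.54.

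The 5hmC and 5mC libraries of the 5 cell types allow a test in which the cell types stand in for replicates. Each library was centred on its median gene area, so the test asks whether a gene ranks higher in 5hmC than in 5mC relative to other gene areas. A call needed an adjusted p (limma, Benjamini-Hochberg over all gene areas) under 0.05 and an absolute log2 difference of 1 or more. On that rule 22 of 43 interferon-stimulated genes were called higher in 5hmC, against 12.9% of all gene areas, and none lower, against 5.99%. At an adjusted p under 0.05 and any size, none of the 43 was lower. The median log2 difference was 1.10, against 0.21 over all gene areas. The filter bears on this test, because 5mC signal at the 43 genes reached at most 2.4, under the mean of 3.31 required. They therefore passed through their 5hmC signal, and the filter also shapes the shares over all gene areas. Without it, 3607 of 37544 gene areas were called higher and 6035 lower, with a median of -0.02. The 43 genes then still gave 22 calls higher and 0 lower. Leaving out the cell types labelled iTreg and Th17 also gave 22 calls.

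The largest relative excess of 5hmC was at Psmb8, with a log2 difference of 2.90 ± 0.23 (standard error, limma, adjusted p = 0.000142), where 5hmC signal was 41.6 to 144.7 and 5mC signal 0.3 to 0.5. Oas3 followed with 2.45 ± 0.22 (limma, adjusted p = 0.000192) and Tap1 with 2.34 ± 0.35 (limma, adjusted p = 0.00131). All 4 antigen-processing genes and all 3 Ifit genes were called. Oasl2, with its flat high 5hmC, was called as well, at 2.09 ± 0.15 (limma, adjusted p = 0.000115). At the other end stood Trim21 (-0.51 ± 0.32, limma, adjusted p = 0.245), Eif2ak2 (-0.18 ± 0.17, limma, adjusted p = 0.426) and Dhx58 (-0.07 ± 0.20, limma, adjusted p = 0.802), none of which was called. Of the sensors only Ifih1 was called, and of the Ifitm genes Ifitm2 and Ifitm3 but not Ifitm1. Ifi35 and Oasl1 were not called although their 5hmC was high, with 5mC signals of 1.8 to 2.4 and 2.1 to 2.3 that were among the highest of the group. The calls at Isg15 and Psmb9 were lost without the naive cells (log2 0.73 and 0.82) and without the iTreg cells, that at Isg15 also without the Th1 cells, and those at Samhd1 and Usp18 without the naive cells (0.94 and 1.00).

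**Figure D4:**
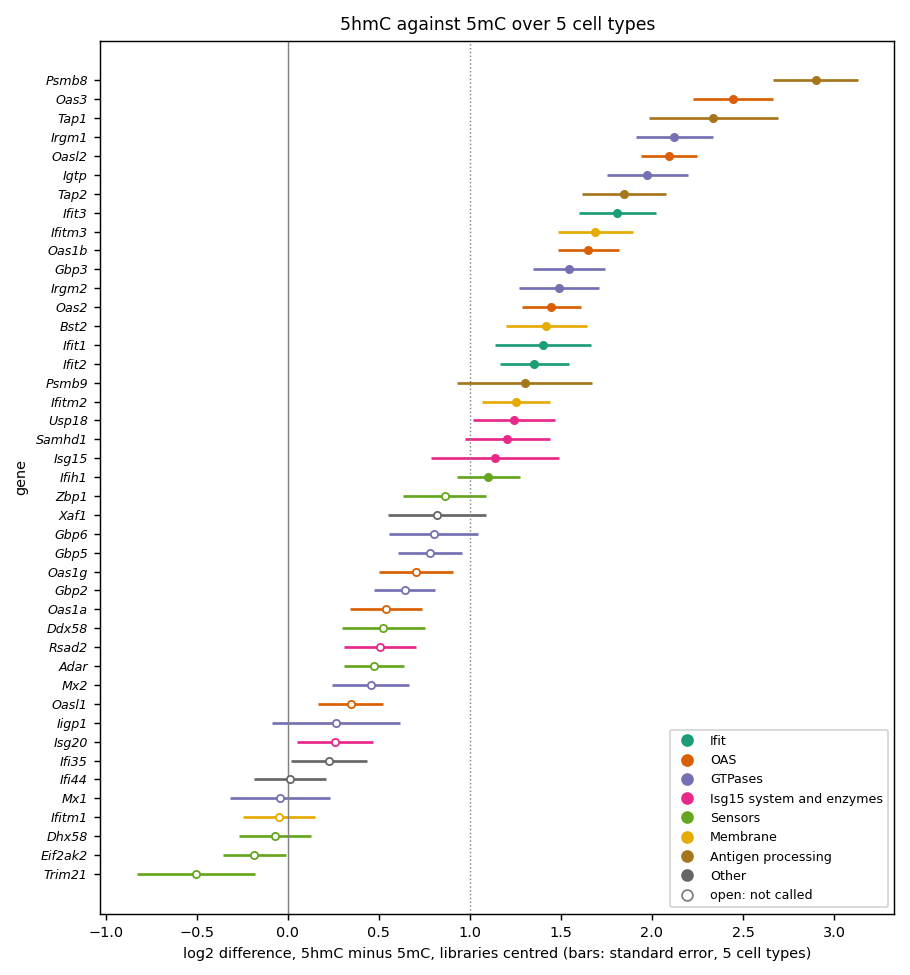
Log2 difference of 5hmC minus 5mC signal for each gene (x axis, libraries centred on their median gene area) with its standard error over 5 cell types, sorted by size and coloured by family. Filled points are the 22 genes called by limma and open points the others, with Psmb8 at the top (2.90) and Trim21 at the bottom (-0.51).

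The control libraries of Th17 cells had lower deposited values at these genes than the 5hmC library labelled Th17, whose label is in doubt. The 43 genes had a median 5hmC signal of 19.3 with the label Th17 and 26.0 with the label iTreg. The medians were 1.2 with Th17 control IgG and 1.9 in Th17 input DNA, and IgG values reached 4.9. The lowest 5hmC value, 2.5 at Iigp1, stood beside 0.3 in IgG and 1.3 in input DNA. The Th17 5mC values had a median of 0.8, below the IgG and input medians. The scaling between libraries is not given in the sources used here, so enrichment by the 5mC antibody cannot be read from them. The 5hmC values stand beside the controls on the same unknown scale.

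Genes of the interferon pathway that are not themselves in the group were examined from a fixed list of 33, of which 32 matched a row. Averaged over the differentiated libraries, 14 of 32 had at least 2-fold less 5hmC signal than naive cells, against 16% of all gene areas, and 0 more, against 2.94%, with a median log2 difference of -0.72, against -0.27 over all. Ifnb1 and Ifna4 were below the filter on low signal. By role it was 3 of 4 receptor and 8 of 12 signalling genes. Irf1, a transcription factor induced by interferon gamma, had 58.9 in Th1, 38.3 in Th2, 44.2 in the library labelled iTreg and 17.7 in that labelled Th17, against 141.2 in naive cells. Irf9 had 35.8, 39.0, 48.0 and 34.2 against 105.8. Irf7, which amplifies interferon production, had a log2 difference of -1.64. Jak2 stood apart with 65.1 and 94.8 in Th1 and Th2, 30.1 with the label iTreg, 25.6 with the label Th17, and 31.7 in naive cells. Of the receptors, Ifnar1, Ifngr1 and Ifngr2 were at least 2-fold below naive (-1.40, -1.03 and -1.03) and Ifnar2 was not (-0.44). Of the interferon genes themselves 1 of 7 was, Ifna2, and of the sensing adaptors 2 of 9, Tbk1 and Myd88.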

How the data were processed

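The 12 libraries were 5hmC and 5mC immunoprecipitates of 5 T cell types, with IgG and input DNA of Th17 cells. The deposited signal is a mean per gene area with 1 decimal. CASAVA 1.7.0 and build mm9 are named, with no role, per the submitters' processing notes. How the authors counted and scaled reads, and each library's depth, is not given in the sources used here, so no counting interval could be given. Columns were matched to libraries by sample number, and 0 value columns were unused. Of 37752 rows, 208 repeated a symbol and the row with the highest mean was kept. Logarithms used a pseudocount of 0.2, the 5th percentile of non-zero values, so differences at low signal are understated. Counts over all gene areas used those with a mean at or above the 25th percentile.

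The test of 5hmC against 5mC was a linear model with a term for cell type and a trended variance (limma 3.58.1, R 4.3.3). On data simulated for this comparison with 28159 gene areas, it called 69 of 100 planted log2 differences of 1.5, 97 of 100 of 3, and 4 of 27959 unchanged areas. The simulated noise was normal and independent, with no rounding to 1 decimal and no differences between cell types. These rates therefore need not hold for the deposited values. Other steps used Python 3.11.15, numpy 2.4.6, pandas 2.3.3 and matplotlib 3.10.9. Clusters joined genes less than 500 kb apart. The genes, lists, families and tests were chosen with earlier results of these data known. By rule every member could be named, and per-library values were given for the members with the highest and lowest mean 5hmC of each family, the extremes of each comparison and a preset list; others were added after their values were seen. Alternatives were other pseudocounts, filters, scalings, rows per symbol, IgG subtraction and libraries left out.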

Additional observations from a re-analysis of the deposited data

How the results depend on the processing

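The direction of the 5hmC difference held under every alternative for each gene at least 2-fold from naive in the mean of the 4 libraries. Among smaller differences, Mx2, Iigp1, Gbp5, Gbp2 and Oasl2 changed sign with Th1 and Th2 alone. Median-ratio scaling shifts all differences up. It gave 7 genes at least 2-fold below naive in Th1 (8.99% of all gene areas) and 7 in Th2 (9.39%). In the mean of the 4 it gave 9 (8.38%). At least 2-fold above naive were 2 in Th1 (7.81% of all gene areas), 1 in Th2 (7.77%) and 1 in the mean (6.51%). There were 2 above in the library labelled iTreg (7.77%) and 1 in that labelled Th17 (11.3%). IgG subtraction gave 1 gene at least 2-fold above naive in Th1 (5.66% of all gene areas) and 2 with the label iTreg (5.91%). The 5mC counts past 2-fold are small and moved with several settings. The shares over all gene areas are given in brackets, lower then higher. With a pseudocount of 0.1 there were 2 in Th1 (3.45%, 3.37%) and 2 in Th2 (4.91%, 2.41%). There were also 2 in iTreg (7.1%, 2.05%) and 2 in Th17 (6.04%, 2.24%). A pseudocount of 1 gave 0 in Th2 (0.554%, 0.263%) and Th17 (0.65%, 0.231%). Under median-ratio scaling there were 2 in Th2 (2.54%, 2.05%). IgG subtraction gave 3 in Th1 (3.55%, 4.65%), 2 in Th2 (5.92%, 2.76%) and 2 in iTreg (8.49%, 2.27%). It gave 4 in Th17 (7.86%, 2.13%) and 1 in the mean (4.4%, 1.43%). Limma called between 17 and 23 genes higher in 5hmC under the alternatives, and none lower. Over all gene areas, between 846 (pseudocount 1) and 6035 (no filter, of 37544) were called lower. Quantile normalization gave 17, with 3004 of all 28159 gene areas called higher. With 1 cell type left out it was between 18 (without naive, 3462 of all 28159) and 23 (without Th17, 3698). Without the cell type as a replicate block it was 22, with 3624 of all 28159 called higher. Keeping the longest row per symbol or applying the filter to the members changed no count. No paired analysis between cell types was possible because each has 1 library per antibody.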

Other observations

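Relatives of these genes outside the list, picked by name after the data were seen, are given as values only. The gene ID that the reference table (GRCm38.p6) names Ifi27 is called Ifi27l1 in the signal table. It had a 5hmC signal of 20.1 in Th1, 15.7 in Th2, 20.7 in the library labelled iTreg and 8.7 in that labelled Th17, against 33.9 in naive cells. Its neighbour Ifi27l2a had 11.3, 10.8, 12.7 and 6.9 against 23.2 in naive cells.

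In the OAS cluster, Oas1c, next to Oas1b, had 27.1, 27.0, 29.2 and 21.9 against 43.6 in naive cells, while Oas1d, at the far end next to Oas1a, had 17.7, 18.9, 13.3 and 20.6 against 12.9. Among guanylate-binding proteins, Gbp4 and Gbp9 on chromosome 5 had log2 differences of -1.05 and -1.18, and Gbp1, between Gbp3 and Gbp2 on chromosome 3, of -0.06. The DNA sensors of the Ifi200 family on chromosome 1 differed in level: Ifi204 had 11.3, 16.0, 13.9 and 17.1 against 10.7 in naive cells, Ifi203 had 9.2, 9.9, 8.0 and 11.3 against 11.8 in naive cells, and Ifi202b had 7.7, 7.2, 5.5 and 5.9 against 6.0. Ifi205, which did not pass the filter on low signal, had 6.4, 6.4, 3.6 and 4.2 against 2.4.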
